A study of Mus musculus with 12 samples.

Results

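Glycolysis splits glucose into pyruvate in the cytosol and yields ATP without oxygen, while glycogen is the branched glucose store that muscle fills at rest and breaks down during contraction. Hexokinase traps glucose as glucose 6-phosphate, phosphofructokinase sets the committed step, and glycogen phosphorylase, switched on by phosphorylase kinase, feeds stored glucose into the same route. Fast muscle fibers depend on both pathways.

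The genes described here are 34 enzymes, regulators and transporters of these pathways, taken by symbol from a fixed list, of which 30 had a row with that symbol among the 23185 named genes of the arrays and were tested. The rows of Gpi1 and Pfkfb1 carried no symbol and were identified by their Entrez numbers, so their values come from a fit over every entry and stay outside the counts. Gapdh and Eno1 were not analysed here. The arrays measured RNA of mouse skeletal muscle of mice injected intraperitoneally over 6 days, once every other day. The groups were 50 µg/kg recombinant IL-8 (human IL-8, 5 arrays), 50 µg/kg KC, the mouse chemokine Cxcl1 (4 arrays), and vehicle, 0.1% BSA (3 arrays). The IL-8 and vehicle mice were male C57BL/6J of 8 weeks, with no genetic change described, and their whole tibialis anterior, a shin muscle rich in fast fibers, was taken on day 7. For the KC mice the sources used here do not give which muscle, age or day of harvest. Nothing states whether replicates of a group shared a cage or an injection series, so p-values measure the spread between these arrays.

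Values are log2 intensities, on which a difference of 1 is a doubling, and the number of arrays limits their precision. In whole muscle, fewer cells of a type and less RNA per cell cannot be told apart. The muscle markers Acta1 and Ckm lay between 11.91 and 12.58 in all 12 arrays, and the slow fiber myosin Myh7 between 1.99 and 2.82. Liver transcripts set 3 arrays apart: Alb, serum albumin, read 7.70 in IL-8 1, where the remaining IL-8 arrays lay at 3.14 to 3.69. In vehicle 2 and 4 it read 10.15 and 9.78, and 3.85 in vehicle 1. In KC arrays it was 3.39 to 5.36. The mean over 16 measured of 18 liver markers was 2.88 to 5.66 in IL-8, 3.07 to 3.38 in KC and 3.06 to 6.32 in vehicle. Differences are therefore also given within these 3 arrays and within the rest for the called members and for some of the others. Within the 3 arrays IL-8 1 was the only IL-8 array, and within the rest vehicle 1 was the only vehicle array. Each such IL-8 and vehicle difference thus rests on a single array in a group.

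IL-8 muscle had more RNA for hexokinase 2, for the regulator Pfkfb4 and for the phosphorylase kinase subunit Phka1 than vehicle muscle. Calls needed a limma p, adjusted by Benjamini-Hochberg over all named genes, of 0.1 or less and a 1.5-fold difference. By this rule 3 of 30 members were called higher and 0 lower, where 1.75% of all genes were called higher and 0.802% lower. Of all called genes 68.6% were higher, or 83.9% after centring every array on its own median. At an unadjusted p under 0.05, 10 members were higher and 0 lower, against 10.1% and 11.6% of all genes. In 5 members the lowest IL-8 array exceeded the highest vehicle array and in 0 the reverse held, where 4.6% and 6.43% of all genes did so. The median log2 difference was 0.19 over the 30 members and -0.07 over all genes, with 18 members above 0 and 12 below.

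Hk2 encodes hexokinase 2, the insulin-responsive hexokinase of muscle, at chr6:82725025-82774454 in GRCm38.p6. Its log2 values were 7.57, 8.57, 8.34, 8.55 and 7.89 in the IL-8 arrays, 8.20, 7.56, 7.06 and 6.78 in the KC arrays, and 7.61, 6.67 and 6.96 in the vehicle arrays. IL-8 1, one of the arrays with liver transcripts, was the lowest of its group and fell just under vehicle 1, so the groups overlapped by that pair alone. The log2 difference between IL-8 and vehicle was 1.10 (SE 0.27), a level 115% higher, with a limma adjusted p of 0.0954. It was 0.75 within the arrays with liver transcripts and 0.73 within the others.

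Pfkfb4 encodes a bifunctional enzyme that makes and removes fructose 2,6-bisphosphate, the activator of phosphofructokinase, and lies at chr9:108988272-109032236. It read 5.33, 5.30, 5.32, 5.48 and 5.67 in the IL-8 arrays, 5.27, 5.37, 5.02 and 5.08 in the KC arrays, and 4.83, 4.42 and 4.69 in the vehicle arrays. Every IL-8 array and every KC array lay above the highest vehicle array. The difference between IL-8 and vehicle was 0.77 (SE 0.14, 1.71-fold, limma adjusted p 0.0908), and it was 0.77 within the arrays with liver transcripts and 0.62 within the others.

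Phka1 encodes the muscle form of the regulatory alpha subunit of phosphorylase kinase, loss of which in humans causes a glycogen storage disease, and lies at chrX:102513975-102644301. It read 9.66, 9.83, 9.42, 10.03 and 9.86 in the IL-8 arrays, 9.998, 9.32, 9.22 and 9.003 in the KC arrays, and 9.30, 8.77 and 9.21 in the vehicle arrays. All IL-8 arrays exceeded all vehicle arrays, IL-8 3 by the narrowest margin, while KC 1 stood with the IL-8 arrays. The difference between IL-8 and vehicle was 0.67 (SE 0.17, 1.59-fold, limma adjusted p 0.0968), with 0.66 within the arrays with liver transcripts and 0.49 within the others.

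None of the 3 calls was made once the arrays with liver transcripts were taken as a block (limma adjusted p 0.214 for Hk2, 0.180 for Pfkfb4 and 0.306 for Phka1) or left out, which leaves vehicle 1 as the only vehicle array (limma adjusted p 0.467, 0.393 and 0.602 in the same order). No member was called without vehicle 2, vehicle 4 or any one of IL-8 2, 3, 4 and 5, nor after quantile normalization, with the exact permutation test or with the methods' t-test, whereas 9 members were called higher without vehicle 1.

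**Figure D1:**
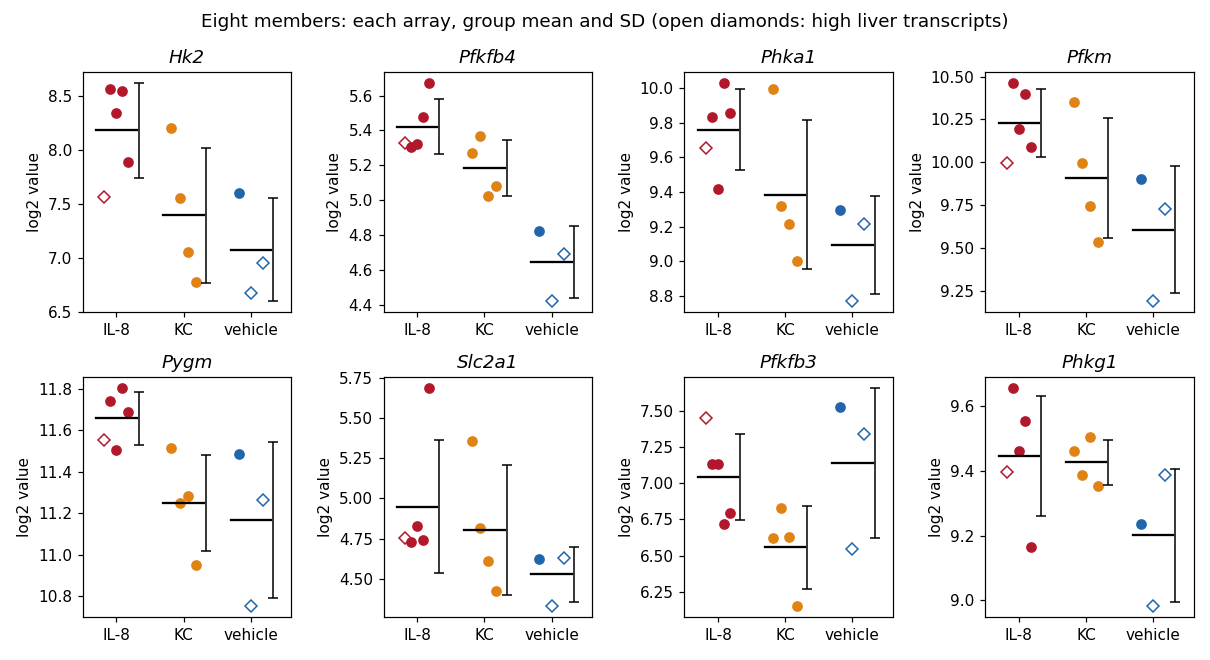
Log2 value of 8 members in each array (points), with the group mean (bar) and SD (whisker) for IL-8 (n = 5), KC (n = 4) and vehicle (n = 3); open diamonds are the arrays with high liver transcripts. Pfkfb4, Phka1, Pfkm, Pygm and Slc2a1 show no overlap of IL-8 with vehicle, and in Hk2 only IL-8 1 (7.57) falls under the highest vehicle array (7.61).

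The sequences before the start sites of Hk2 and Phka1 are shown because both genes were called, with letters of known promoter motifs in capitals. Both are RefSeq sequence of GRCm38.p6 on the minus strand, written 5′ to 3′ toward the start, 250 bases for Hk2 at chr6:82774455-82774704 and 195 bases for Phka1 at chrX:102644302-102644496, the stretch outside the annotated gene. The window listed for Pfkfb4 lies inside its annotated gene and is not shown. Capitals mark ACGTG, the core of the hypoxia response element, and the GC box GGGCGG, read on either strand.
Hk2: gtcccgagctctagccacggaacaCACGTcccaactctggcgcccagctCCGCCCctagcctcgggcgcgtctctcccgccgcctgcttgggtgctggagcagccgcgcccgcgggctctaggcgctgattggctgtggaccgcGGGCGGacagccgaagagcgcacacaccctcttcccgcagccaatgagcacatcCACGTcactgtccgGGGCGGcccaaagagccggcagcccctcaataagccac
Phka1: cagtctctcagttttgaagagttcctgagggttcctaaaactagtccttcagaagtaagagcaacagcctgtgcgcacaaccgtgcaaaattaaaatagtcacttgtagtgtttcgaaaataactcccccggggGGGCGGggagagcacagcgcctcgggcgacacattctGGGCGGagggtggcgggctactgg

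Hk2 held ACGTG at 2 places and GGGCGG at 3, and the Phka1 stretch held GGGCGG at 2 and no ACGTG. Over the 250 bases before each start, 31 members had at least 1 window. ACGTG was present for 14 of them (45.2%), against 20.0% of 17492 coding genes, and GGGCGG for 21 (67.7%), against 45.8%. The E-box CACGTG, which contains ACGTG, was found for 3 (9.7% against 7.6%), namely Ldha, Pfkfb3 and Pfkm. TATAAA was found for 2 (6.5% against 13.7%), the FoxO motif TGTTTAC for 1 (3.2% against 3.0%) and the MEF2 motif for 0 (0.3% of coding genes). Members can have several windows, 45 in all, and a match of letters is a description of the sequence only.

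The glucose and lactate transporters were Slc2a1 (GLUT1, basal glucose uptake), Slc2a4 (GLUT4, moved to the surface by insulin and contraction) and Slc16a3 (MCT4, lactate export). None of the 3 was called, and their differences between IL-8 and vehicle were 0.42, 0.54 and 0.29 in that order. Slc2a1 read 4.75, 4.73, 4.83, 4.74 and 5.69 in the IL-8 arrays, 5.36, 4.81, 4.61 and 4.43 in the KC arrays, and 4.62, 4.33 and 4.63 in the vehicle arrays. The IL-8 arrays all lay above the vehicle arrays, 4 of them between 4.73 and 4.83, and IL-8 5 stood alone (limma adjusted p 0.284). For Slc2a4 the limma adjusted p was 0.192. Slc16a3 was lowest of all 12 arrays in IL-8 5, at 7.65, and its difference was 0.59 within the arrays with liver transcripts and 0.00 within the others.

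The step that phosphorylates glucose and commits it to glycolysis held 2 of the 3 called genes. Beside Hk2 and Pfkfb4, Pfkm, the muscle phosphofructokinase, read 9.99, 10.46, 10.19, 10.40 and 10.09 in the IL-8 arrays, 10.35, 9.99, 9.74 and 9.54 in the KC arrays, and 9.90, 9.19 and 9.73 in the vehicle arrays. The IL-8 arrays all lay above the vehicle arrays, with a difference of 0.62 (SE 0.18, 1.54-fold) that passed the fold limit but not the adjusted p (limma adjusted p 0.112). The other isoforms differed less between IL-8 and vehicle, by 0.06 for Pfkl, the liver form, and -0.17 for Pfkp, the platelet form. Hk1, the widely expressed hexokinase, differed by -0.02. The Pfkp difference was 0.23 within the arrays with liver transcripts and -0.52 within the others. Pfkl was dim, averaging 3.54 over the 12 arrays, near the array medians of 3.31 to 3.48.

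Pfkfb3, a second enzyme of fructose 2,6-bisphosphate that favours its synthesis, read 7.45, 7.13, 7.13, 6.72 and 6.79 in the IL-8 arrays, 6.62, 6.83, 6.63 and 6.15 in the KC arrays, and 7.52, 6.55 and 7.34 in the vehicle arrays. IL-8 and vehicle overlapped, with a difference of -0.09 (SE 0.23) that was 0.51 within the arrays with liver transcripts and -0.58 within the others. All KC arrays lay below the medians of both other groups. Gpi1, glucose 6-phosphate isomerase, and Pfkfb1, the liver and muscle form, differed between IL-8 and vehicle by 0.19 (SE 0.14) and 0.19 (SE 0.28), where the Pfkfb1 value was 0.64 within the arrays with liver transcripts and -0.41 within the others.

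From aldolase to lactate, 0 of 10 tested members were called and the median difference between IL-8 and vehicle was -0.03. Pkm, pyruvate kinase, was the 1 member there with an unadjusted p under 0.05, at 0.43 (SE 0.16, limma adjusted p 0.164). It was 0.70 within the arrays with liver transcripts and 0.08 within the others. Pgk1, phosphoglycerate kinase, had the lowest difference of the 30 members, -0.80 (SE 0.38, limma adjusted p 0.247), and its IL-8 arrays spread from 3.18 to 4.99. Eno3, the muscle enolase, differed by -0.22, Pgam2, the muscle phosphoglycerate mutase, by -0.30, and Ldha, the muscle lactate dehydrogenase, by -0.11. Aldoa, Aldoc, Tpi1, Pgam1 and Ldhb lay between -0.04 and 0.22. Of these, Aldoc and Pgam1 were dim, averaging 2.81 and 3.51 over the 12 arrays.

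Of the 6 members of glycogen synthesis 0 were called. Gys1, the muscle glycogen synthase, had the second largest difference of all members at 0.90 (SE 0.34, limma adjusted p 0.173) and is singled out after its values were seen. It read 8.83, 9.57, 9.57, 9.54 and 8.74 in the IL-8 arrays, 9.09, 8.88, 8.70 and 8.15 in the KC arrays, and 9.21, 7.54 and 8.30 in the vehicle arrays. Vehicle 1 lay above IL-8 1 and IL-8 5, and vehicle 2 was the lowest array of all. The difference was 0.91 within the arrays with liver transcripts and 0.15 within the others. The branching enzyme Gbe1 differed by 0.48 (limma adjusted p 0.227), while the primer protein glycogenin Gyg, the UDP-glucose enzyme Ugp2 and the phosphoglucomutases Pgm1 and Pgm2 differed by -0.03, -0.08, 0.29 and -0.29.

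In glycogen breakdown all 4 members lay higher in IL-8 than in vehicle, with a median difference of 0.42 and 1 called gene, Phka1. All 3 transporters lay higher as well, as did 7 of 8 muscle markers and 8976 of all 23185 genes. Pygm, the muscle phosphorylase that cuts glucose units from glycogen, read 11.55, 11.74, 11.50, 11.80 and 11.69 in the IL-8 arrays, 11.52, 11.25, 11.28 and 10.95 in the KC arrays, and 11.49, 10.75 and 11.26 in the vehicle arrays. All IL-8 arrays exceeded all vehicle arrays, vehicle 1 coming closest, and the difference was 0.49 (SE 0.17, limma adjusted p 0.141), with 0.55 within the arrays with liver transcripts and 0.20 within the others. Phkb, the beta subunit of phosphorylase kinase, differed by 0.35 (limma adjusted p 0.166).

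Phkg1, its muscle catalytic subunit, read 9.40, 9.66, 9.46, 9.55 and 9.17 in the IL-8 arrays, 9.46, 9.39, 9.51 and 9.35 in the KC arrays, and 9.24, 8.98 and 9.39 in the vehicle arrays. IL-8 5 fell below 2 vehicle arrays, and the difference was 0.25 (SE 0.14, limma adjusted p 0.338).

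**Figure D2:**
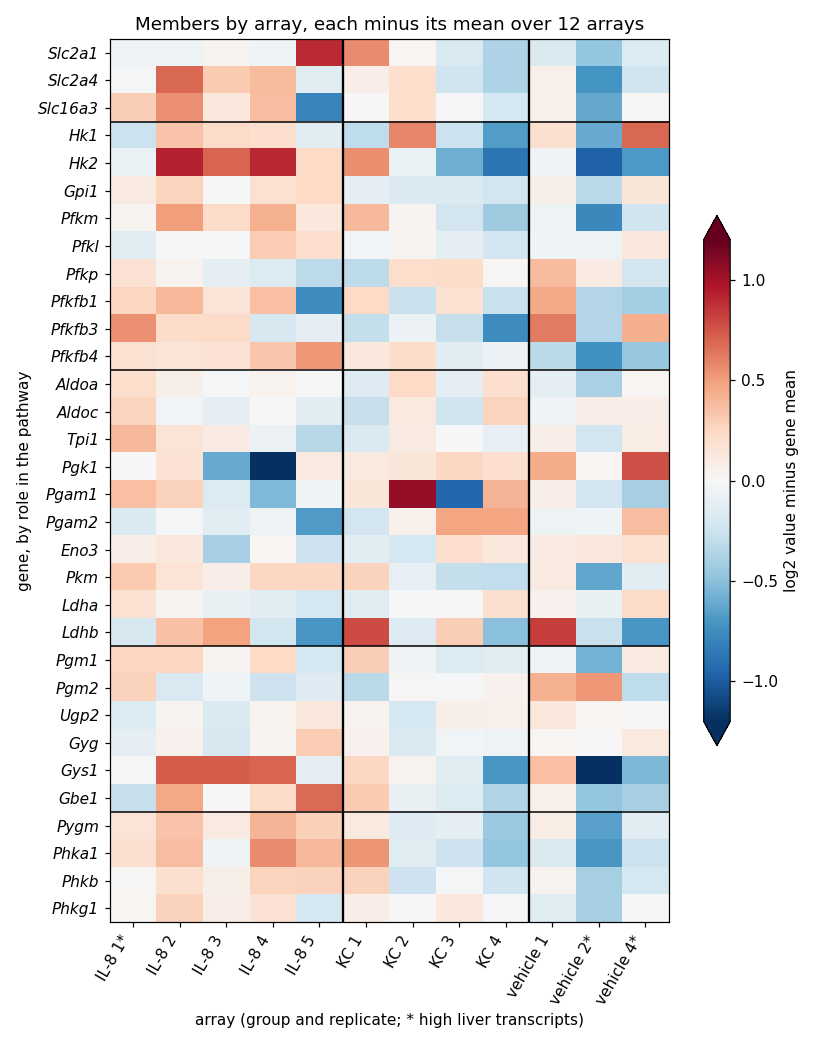
Log2 value of 32 members in each array minus the gene's mean over the 12 arrays (colour), with genes ordered by step and arrays by group (IL-8, KC, vehicle); asterisks mark arrays with high liver transcripts. Vehicle 2 is low across most rows (mean -0.36 over the 30 tested members), and Pgk1 has the widest spread among the IL-8 arrays (SD 0.76).

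Read per array, the mean over the 30 tested members, each gene minus its mean over 12 arrays, was 0.08, 0.24, 0.05, 0.09 and -0.005 in the IL-8 arrays, 0.09, 0.05, -0.10 and -0.18 in the KC arrays, and 0.10, -0.36 and -0.06 in the vehicle arrays. Vehicle 2 was the lowest and vehicle 1 lay above 4 of the 5 IL-8 arrays, so the groups overlapped in the whole list. The median difference between IL-8 and vehicle was 0.31 within the arrays with liver transcripts and 0.05 within the others. In 10 of the 30 members the sign differed between these sets of arrays, among them Ldhb (0.29 and -0.85) and Pgm2 (0.17 and -0.59). Tpi1, Pgam1 and Gyg had the opposite sign within the others (-0.11, -0.20 and 0.03) to that over all arrays (0.07, 0.16 and -0.03). The mean over 8 muscle markers was 0.04 to 0.36 in IL-8, -0.38 to 0.26 in KC and -0.40 to -0.01 in vehicle. For these markers the IL-8 and vehicle ranges were apart, unlike those of the members' mean. Among those markers 3 were called higher in IL-8 than in vehicle, Ttn, Neb and Ryr1. Over all genes 1.75% were called higher there and 0.802% lower. Mb, myoglobin, had every IL-8 array below the vehicle arrays (-0.33, limma adjusted p 0.199), and Acta1 and Ckm differed by 0.04 and 0.07. Of 12 fast fiber markers 0 were called between IL-8 and vehicle, with 6 positive and 6 negative differences. At an unadjusted limma p under 0.05, 3 of them were higher in IL-8 and 0 lower. The mean over 8 fibroblast and tendon markers was -0.89 to 0.78 in IL-8, -1.06 to 1.08 in KC and -0.18 to 0.67 in vehicle. Of 8 endothelial markers 2 were called higher in IL-8, Vwf (0.64) and Robo4 (0.75), with list means of -0.01 to 0.27 in IL-8 and -0.39 to 0.45 in vehicle. Signs in that list were mixed, with 5 positive and 3 negative differences. Its marker Cldn5 read 3.03 to 3.43 in IL-8, below the 3.50 to 3.85 of vehicle. Of 6 adipocyte markers, all with negative differences, 1 was called lower, Fabp4 (-0.76), with list means of -0.46 to 0.52 in IL-8 and -0.02 to 1.09 in vehicle. The difference between IL-8 and vehicle also went with the length a gene spans in the genome, with a Spearman rho of 0.27 across 23185 genes and 0.23 across the 30 members, which all come from the same 8 arrays. Members spanned a median of 22829 bases and all genes 15555. The part of muscle, fast fiber, tendon, endothelial and adipocyte transcripts in the members' differences was not tested. That of gene span was not tested beyond the fit with the span trend removed. In that fit Pfkfb4 alone was called and the differences moved little. Hk2 was then at 1.07 (limma adjusted p 0.104), Phka1 at 0.61 (limma adjusted p 0.110) and the members' median at 0.24.

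**Figure D3:**
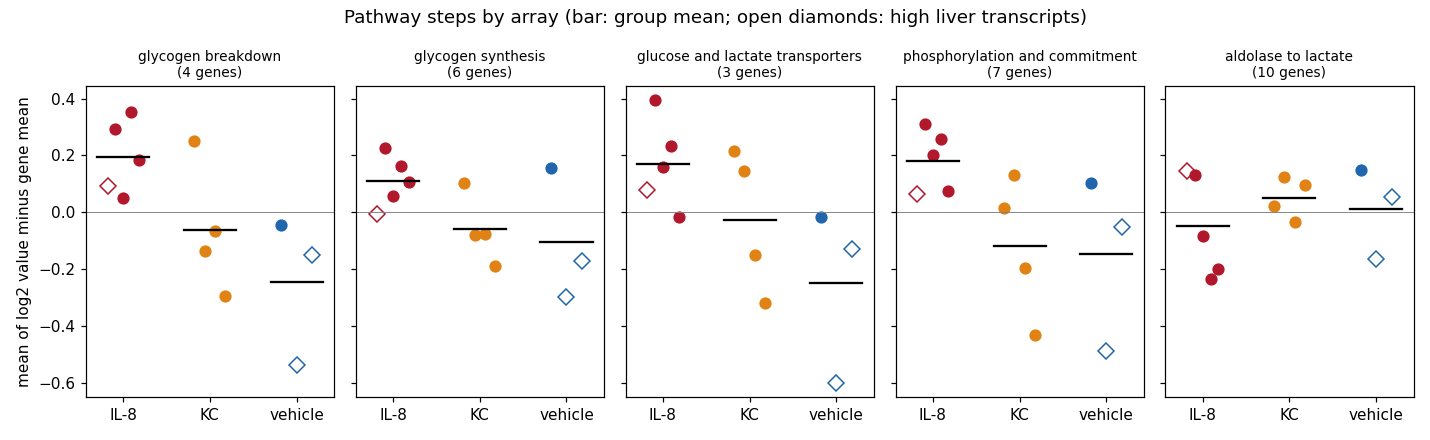
Mean over the tested members of each step of log2 value minus gene mean, for each array (points) with the group mean (bar); open diamonds are the arrays with high liver transcripts. In glycogen breakdown the 5 IL-8 arrays (0.05 to 0.35) lie above the 3 vehicle arrays (-0.54 to -0.05), whereas from aldolase to lactate IL-8 (-0.23 to 0.15) and vehicle (-0.16 to 0.15) overlap.

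KC, which in mice acts through the receptor that IL-8 also binds, was compared with vehicle. No member was called higher or lower, as for all genes (0% each way). At an unadjusted p under 0.05 there was 1 higher member and 1 lower, against 1.66% and 2.32% of all genes, and 1 member had every KC array above every vehicle array and 0 below, against 2.5% and 2.45%. The median difference was 0.12 over the members and 0.00 over all genes.

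Pfkfb4 was again the member that stood above vehicle in every array, by 0.54 (SE 0.16, 1.45-fold, limma p 0.0069, adjusted p 0.994). Pfkfb3 differed by -0.58 (SE 0.25, limma p 0.043, adjusted p 0.994), with KC 1, 2 and 3 above vehicle 2, so that the groups overlapped. The third smallest p was that of Phkg1, at 0.23 (SE 0.15, limma p 0.153). Hk2 and Phka1 differed from vehicle by 0.32 (SE 0.34) and 0.29 (SE 0.24), with KC 1 high and KC 4 low in both. Against vehicle 1, the vehicle array without liver transcripts, Hk2 was at -0.21 and Phka1 at 0.09. There the members' median in KC was -0.10, below 0 where the value over all vehicle arrays was above it, and 10 of the 30 members changed sign.

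**Figure D4:**
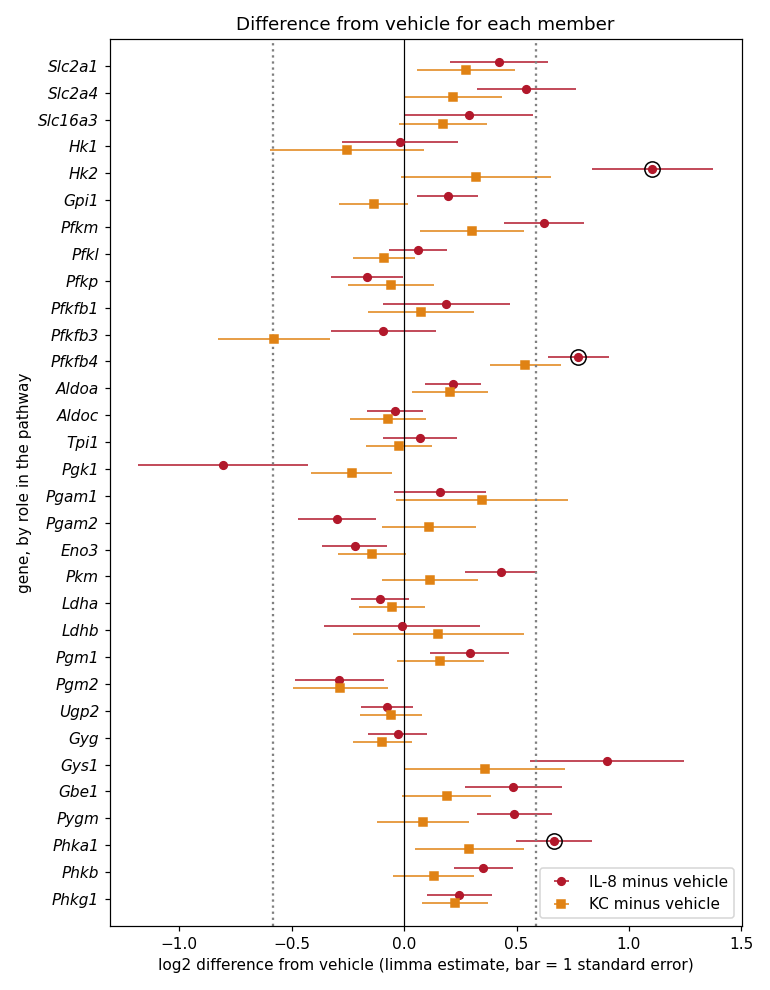
Log2 difference of 32 members from vehicle in IL-8 (circles) and KC (squares), with 1 standard error, both set against the same 3 vehicle arrays; rings mark called genes and dotted lines the 1.5-fold limit. The IL-8 values of Hk2 (1.10), Pfkfb4 (0.77) and Phka1 (0.67) are ringed, and the KC values of Hk2 (0.32) and Phka1 (0.29) lie to their left.

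IL-8 and KC muscle were compared directly, without the vehicle arrays. In this comparison 0 of 30 members were called, where 1.61% of all genes were called higher and 1.41% lower. At an unadjusted p under 0.05, 5 were higher and 1 lower, against 8.76% and 11.1% of all genes, and 0 did not overlap either way, against 2.48% and 4.2%. The median was 0.12 over the members and -0.05 over all genes. The smallest p belonged to Pygm, at 0.41 (SE 0.12, limma adjusted p 0.111), with 4 of 5 IL-8 arrays above every KC array. Pfkfb3 differed by 0.49 (SE 0.17, limma adjusted p 0.154) and Hk2 by 0.78 (SE 0.29, 1.72-fold, limma adjusted p 0.165), each with 3 of 5 IL-8 arrays above every KC array. Without IL-8 1 or without KC 1, Hk2 was called. Pkm and Gys1 were the other members higher at that p, by 0.32 and 0.54, and Pgam2 was the one lower, by -0.41. Pfkfb4 differed by 0.24 (SE 0.12, limma adjusted p 0.288). Gpi1, in the fit over every entry, had all IL-8 arrays above all KC arrays and a limma adjusted p of 0.0991, but its 1.26-fold difference (0.33, SE 0.09) was under the fold limit.

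Genes that surround the 34 were counted in the same fits, from lists of pathways. For IL-8 against vehicle, 1.75% of all genes were called higher and 0.802% lower. In that comparison 1 of 20 other glycolytic genes was called higher, Gpd2 (0.69), the mitochondrial glycerol 3-phosphate dehydrogenase. Of 25 other genes of glycogen metabolism 1 was called, Gaa (1.10), the lysosomal glucosidase that degrades glycogen. Of 13 genes of pyruvate entry 1 was called, Pcx (1.10), pyruvate carboxylase, and of 11 genes of the pentose phosphate and hexosamine branches 1, H6pd (1.02). Among 18 transcriptional regulators of glycolysis 2 were called, the glucose-responsive factor Mlxip (1.14) and Mef2d (1.26), a factor of muscle genes. No gene of these lists was called lower, and of 12 further genes of sugar and lactate transport 0 were called, the smallest p being that of Tbc1d1 (0.61, limma adjusted p 0.136).

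As in Hk2, IL-8 1 was the lowest of its group for Mlxip, Gaa and Mef2d and lay under vehicle 1, at 7.26 against 7.34 for Gaa and 7.613 against 8.002 for Mef2d. Mlxip read 6.18 in IL-8 1 and 7.02 to 7.15 in the other IL-8 arrays, against 6.50 in vehicle 1 and 5.40 and 5.39 in vehicle 2 and 4. For Gpd2, Pcx and H6pd the IL-8 and vehicle arrays did not overlap.

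For KC against vehicle none of these lists held a called gene. H6pd had the smallest p of the pentose phosphate and hexosamine branches (0.64, limma p 0.0134). In that list of 11, 2 genes were higher at an unadjusted limma p under 0.05, where 1.66% of all genes were. Taldo1 had every KC array above every vehicle array, as 2.5% of all genes did. So did 2 of 25 other glycogen genes, 1 of 20 other glycolytic genes and 1 of 18 regulators. Among other glycolytic genes the smallest p was that of Pklr, the liver pyruvate kinase (-0.45, limma p 0.0209). Among other genes of glycogen metabolism it was that of G6pc, the glucose 6-phosphatase of liver (-0.60, limma p 0.0308). G6pc read 1.93 to 2.18 in the KC arrays, against 2.11 in vehicle 1 and 2.75 and 3.25 in vehicle 2 and 4, and Pklr read 2.96 to 3.305 in the KC arrays, against 3.305 in vehicle 1 and 3.77 and 3.68 in vehicle 2 and 4. For IL-8 against KC, 1.61% of all genes were called higher and 1.41% lower. There Gaa (1.02) and Prkaa2 (0.78), an AMPK catalytic subunit, were called higher among 25 other glycogen genes. Pdk4 (0.60) and Pdk2 (0.99), kinases that switch off pyruvate dehydrogenase, were called higher among the 13 genes of pyruvate entry. Of the regulators 4 were called higher, of which Mlxip (1.08), Egln3 (0.90), a hypoxia-responsive prolyl hydroxylase, and Epas1 (1.12), the hypoxia-inducible factor 2 alpha, had the smallest p, and none of these lists held a gene called lower.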

How the data were processed

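RNA of mouse skeletal muscle was hybridised to 12 Affymetrix Mouse Gene ST arrays. The authors deposited log2 values, 1 per gene and array, made by RMA (affy 1.36.1 and R 2.15.1 in the submitters' processing notes), which corrects background, applies quantile normalization and summarises probes and so reduces differences in overall brightness between arrays. Whether all 12 arrays went through a single run is not stated in the sources used here. Array medians ran from 3.31 to 3.48, with the highest in vehicle 2 and 4. Rows are Entrez numbers; 23185 had 1 symbol and 2021 had none.

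With limma 3.58.1 in R 4.3.3 (lmFit, eBayes), each pair of groups was fitted on its own arrays and p-values adjusted over all named genes. Array values were printed for called members, the 3 smallest p where fewer than 3 were called, and members whose groups did not overlap against vehicle. In the other lists up to 3 called genes, or the smallest p, were named. Members and lists were chosen with earlier results of these data known. Alternatives covered normalization, centring, dim genes, every entry, all arrays in one fit, intensity trend, array weights, blocks, tests, thresholds, gene span and each array left out. The tests were tested on simulated data. Figures used matplotlib 3.10.9.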

Additional observations from a re-analysis of the deposited data

Results flagged for a closer look

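Among 64 groups of 4 or 5 arrays tested for one array far from the rest, 4 were marked, where chance marks about 1 in 20. Of these, 3 concern IL-8 5. Pfkfb1 read 6.577 there, the remaining IL-8 arrays lying at 7.489 to 7.735. Pgam2 read 9.122, against 9.624 to 9.784 in the rest. Slc2a1 read 5.686, against 4.731 to 4.829 in the rest. Ugp2 read 10.002 in KC 2, against 10.247 to 10.281 in the other KC arrays.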

How the results depend on the processing

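For IL-8 against vehicle, 3 members were called. The count was 0 after quantile normalization, with the replicate block, with a block for the arrays with liver transcripts, without those arrays (an alternative chosen after seeing the data), by the exact permutation test, by the methods' t-test and at an adjusted p of at most 0.05. It was 1 with all 12 arrays in one fit and with the gene span trend removed, and 5 with array weights and with Storey q-values. Leaving out 1 array gave 0 to 9: 9 without vehicle 1, 4 without IL-8 1, and 0 without any one of the others. Over all genes the count was 592, with 0 to 3338 over the alternatives. It was 0 with either block, by the exact permutation test and by the methods' t-test. It was 2 after quantile normalization and 3338 without vehicle 1. It was 0 for KC against vehicle (92 without vehicle 1, otherwise 0) and 700 for IL-8 against KC (0 to 1741). Of the called genes 68.6% were higher, against 83.9% after centring on the array median and 53.7% without vehicle 1. At an unadjusted p under 0.05, 10 members passed by limma, 6 by the exact permutation test and 3 by the methods' t-test. These counts were 2, 1 and 1 for KC against vehicle and 6, 2 and 2 for IL-8 against KC. Whether the replicate numbers pair the arrays could not be told, as differently numbered arrays were not correlated for comparison. Correlations of same-numbered arrays, on deviations from the group means, were -0.32, -0.20 and 0.00 for IL-8 and vehicle. They were 0.36, -0.17 and 0.22 for KC and vehicle, and -0.36, 0.12, 0.06 and -0.09 for IL-8 and KC. The members' median for IL-8 against vehicle was 0.189, 0.083 without vehicle 2 to 0.295 without vehicle 4, and 0.054 without the arrays with liver transcripts. For KC against vehicle the members' median was 0.123, with -0.102 without the arrays with liver transcripts and -0.046 to 0.236 leaving out 1 array, the lowest without vehicle 2. There 0 members were called under every alternative run. For IL-8 against KC, 0 members were called, with 1 (Hk2) under array weights and without IL-8 1, the only array with liver transcripts there, and 0 to 1 leaving out 1 array. The cause of these changes was not tested. Of the members' counts, their medians and the called or smallest-p members of each comparison, the KC median alone changed sign under these alternatives. The median over all genes also changed sign. For IL-8 against vehicle it was -0.07, with 0.005 after quantile normalization and 0.02 after centring on the array median. For IL-8 against KC it was -0.05, with 0.003 after quantile normalization. Within the arrays with liver transcripts and within the others, signs of further members differed.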
